A study of Mus musculus with 3 samples.

Results

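The Toll-like receptors were examined as a family of 10 genes (Tlr1, Tlr2, Tlr3, Tlr4, Tlr5, Tlr6, Tlr7, Tlr8, Tlr9 and Tlr13), chosen by name from the 54532 genes of the expression tables. All 10 were found, and all 10 had a mean of at least 10 counts over the libraries, as did 14415 genes in all. Toll-like receptors recognize conserved microbial molecules and products of damaged cells. Receptors of the cell surface meet lipoproteins, lipopolysaccharide and flagellin, whereas receptors of the endosome meet nucleic acids. Most of them signal through the adaptor Myd88 to NF-kappaB, and macrophages of the heart carry many of them. Tlr1, Tlr2, Tlr4, Tlr5 and Tlr6 were taken as cell surface receptors, and Tlr3, Tlr7, Tlr8, Tlr9 and Tlr13 as endosomal receptors.

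RNA was sequenced from cultured cells of adult Myh6-mCherry mice, in which the Myh6 promoter drives mCherry in cardiomyocytes. MICFs, fibroblasts isolated from hearts 5 days after myocardial infarction, were kept without virus for the same culture time as the transduced cells. GMTMS-iCMs had received Gata4, Mef2c, Tbx5, Myocd and Sall4, and the GMTMM cocktail has Mesp1 in place of Sall4. Both were induced for 4 weeks in medium with doxycycline (1 μg/ml) and sorted for mCherry, and 5 sorted samples were mixed for each. Each condition is a single library. A difference between conditions therefore has no replicate check, and no test across replicates was possible. No doxycycline is given for MICFs, and MICFs were not sorted. Sorting, virus, cocktail and any difference in doxycycline therefore cannot be told apart.

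Library totals were between 10624118 and 11904484 counts, and a count of 0 allows up to 3 counts, or 0.252 to 0.282 CPM. Series of 3 values below follow the order MICFs, GMTMS-iCMs, library labelled GMTMM. The label GMTMM is at odds with its factors, because Sall4 had 0, 1190 and 1060 counts, and Mesp1 had 0 counts in each of them. Myh6 had 0, 14098 and 5149 counts. Macrophage markers were abundant in all 3 libraries, although the samples are labelled as cardiac fibroblasts and induced cardiomyocytes: the 12 markers had between 812 and 138765 counts each, and none was at 0. Their summed FPKM (fragments per kilobase of gene length, scaled to the size of the library) was 10321, 20068 and 9469 in the 3 libraries, against 1338, 194 and 2519 for 7 fibroblast markers. The lists differ in size, and a few abundant genes weigh on a sum. By geometric mean the macrophage markers had 213, 454 and 186 FPKM, and the fibroblast markers 97.1, 14.9 and 180. In bulk RNA, fewer cells of a type and less RNA per cell cannot be told apart.

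The sequence before the start of some receptors is shown first, because Tlr2 had the largest difference from MICFs, Tlr9 the largest between the transduced libraries, and Tlr8 and Tlr13 were among the endosomal genes that were lower in the library labelled GMTMM. RefSeq promoters (GRCm38.p6) were matched for 8 of the 10 members and not for Tlr4 and Tlr7. The 250 bases before each start were searched on both strands for a PU.1 core (GAGGAA), a STAT dimer site (TTCNNNGAA), the core of the interferon-stimulated response element and the NF-kappaB motif. PU.1 is a transcription factor of the myeloid lineage. Capitals mark the matches, each stretch runs 5′ to 3′ on the strand of the gene, and bases in annotated exons were left out. The stretches are chr3:83841768-83841858 (minus strand) for Tlr2, chr9:106222348-106222597 (plus strand) for Tlr9, chrX:167264330-167264579 (minus strand) for Tlr8 and chrX:106143025-106143203 (plus strand) for Tlr13.
Tlr2: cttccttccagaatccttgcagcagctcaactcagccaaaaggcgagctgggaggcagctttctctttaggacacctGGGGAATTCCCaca
Tlr9: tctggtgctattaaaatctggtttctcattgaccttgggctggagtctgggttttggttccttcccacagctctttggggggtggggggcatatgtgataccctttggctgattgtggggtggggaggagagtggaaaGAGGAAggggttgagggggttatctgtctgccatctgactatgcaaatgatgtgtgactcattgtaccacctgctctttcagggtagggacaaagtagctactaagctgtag
Tlr8: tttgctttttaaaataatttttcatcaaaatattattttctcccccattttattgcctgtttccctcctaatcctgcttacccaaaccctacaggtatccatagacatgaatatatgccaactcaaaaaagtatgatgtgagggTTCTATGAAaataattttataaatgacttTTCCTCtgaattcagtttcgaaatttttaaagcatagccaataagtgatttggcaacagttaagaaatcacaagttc
Tlr13: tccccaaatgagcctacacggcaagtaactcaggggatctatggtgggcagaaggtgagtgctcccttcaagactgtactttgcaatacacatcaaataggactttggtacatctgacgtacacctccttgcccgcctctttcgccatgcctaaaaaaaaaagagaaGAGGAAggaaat
The capitals in Tlr2 are 2 overlapping matches to the NF-kappaB motif, between 173 and 163 bases before the RefSeq start. Of the 250 bases before that start, 159 lie in annotated exons, so the matches lie just before the annotated 5′ end of the gene. The NF-kappaB motif was found before 3.90% of the 32851 starts in the same table, and among the members also before Tlr3. The PU.1 core, found before 23.3% of all starts, occurred before Tlr1, Tlr8, Tlr9 and Tlr13. In Tlr8 it lies on the other strand, next to a match to the STAT dimer site, which was found before 7.02% of all starts and also before Tlr1. The interferon-stimulated response element core (2.98% of all starts) was matched only before Tlr6, by 2 overlapping sites. These are matches of letters, and no binding was measured.

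Levels were compared between genes on FPKM, which accounts for gene length. In MICFs the most abundant receptor was Tlr7 (49.97 FPKM), followed by Tlr13 (38.5), Tlr8 (28.95) and Tlr2 (25.4). In both transduced libraries Tlr2 came first, followed by Tlr7 and Tlr13. Tlr5, the flagellin receptor, was the lowest in every library. The highest and the lowest receptor differed 56.5-fold, 136-fold and 151-fold in the 3 libraries. Neighbours in this order whose exact Poisson 95% intervals overlapped were Tlr6 and Tlr3 in MICFs. In GMTMS-iCMs they were Tlr1 and Tlr9, Tlr9 and Tlr4, and Tlr6 and Tlr3. In the library labelled GMTMM they were Tlr1 and Tlr8, Tlr8 and Tlr4, and Tlr9 and Tlr3. These intervals, and those below, cover counting error only.

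**Figure D1:**
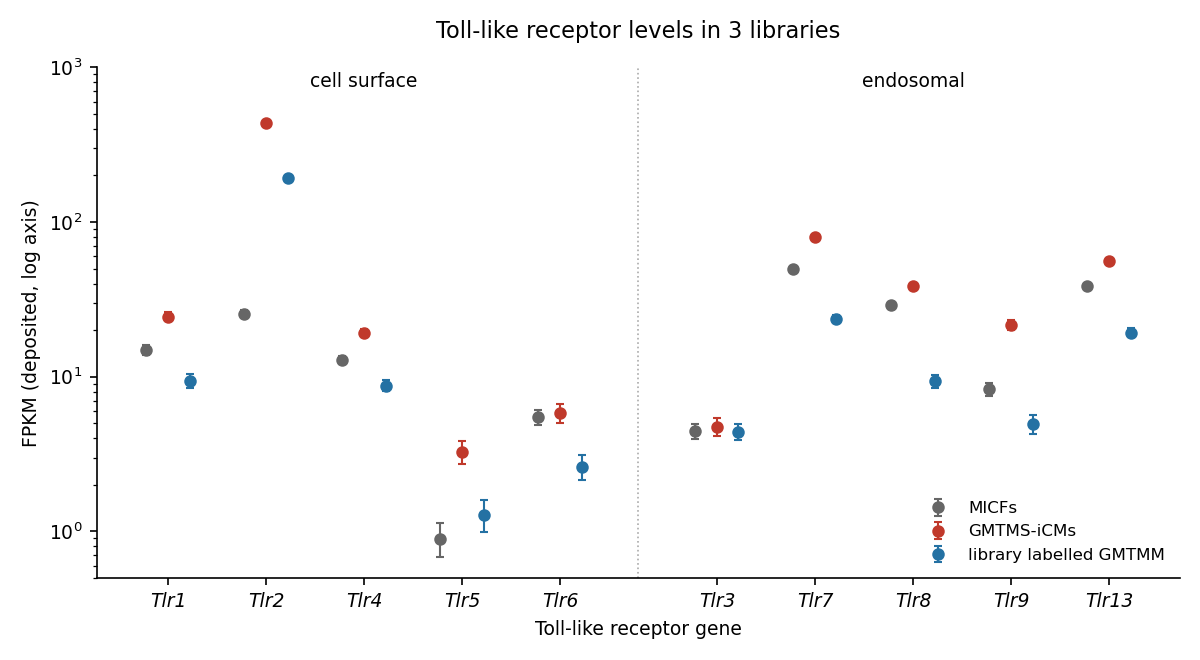
Deposited FPKM (log axis) of each Toll-like receptor gene in the 3 libraries, with exact Poisson 95% intervals that cover counting error only. Tlr2 stands at 25.4 FPKM in MICFs and at 439 and 191 FPKM in the transduced libraries, while Tlr3 lies between 4.39 and 4.76 FPKM in all 3.

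Differences between libraries were taken on the scale of the study, log2 (FPKM + 1) after quantile normalization over the 3 libraries, and a difference of over 1 in size was taken as the mark of a higher or lower gene. Compared with MICFs, 3 of the 10 receptors exceeded that mark in GMTMS-iCMs (Tlr2, Tlr5 and Tlr9) and 0 were lower, with a median difference of 0.25. Of the 14415 genes, 9.25% were higher and 9.19% lower in this comparison, and their median difference was -0.07. In the library labelled GMTMM, 1 receptor was higher than in MICFs (Tlr2) and 3 were lower (Tlr7, Tlr8 and Tlr13), with a median of -0.78. Here 6.67% of all genes were higher and 3.57% lower, and their median was -0.08. Both comparisons use the same MICF library. Between the transduced libraries, 7 receptors were higher in GMTMS-iCMs (Tlr1, Tlr2, Tlr4, Tlr7, Tlr8, Tlr9 and Tlr13) and 0 were lower, where 6.22% of all genes were higher and 9.63% lower. The receptor median there was 1.14. Macrophage markers differed likewise, with 7 of 12 higher, 0 lower and a median of 1.05. Tlr4 (1.00), Tlr5 (1.00) and Tlr6 (0.99) lay at the threshold in that comparison, with Tlr4 just above it and the others just below. Folds below are ratios of deposited FPKM with exact Clopper-Pearson 95% intervals on the counts. They rest on the library sizes behind the deposited FPKM, which differ from the library totals, and the intervals leave that choice out.

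**Figure D2:**
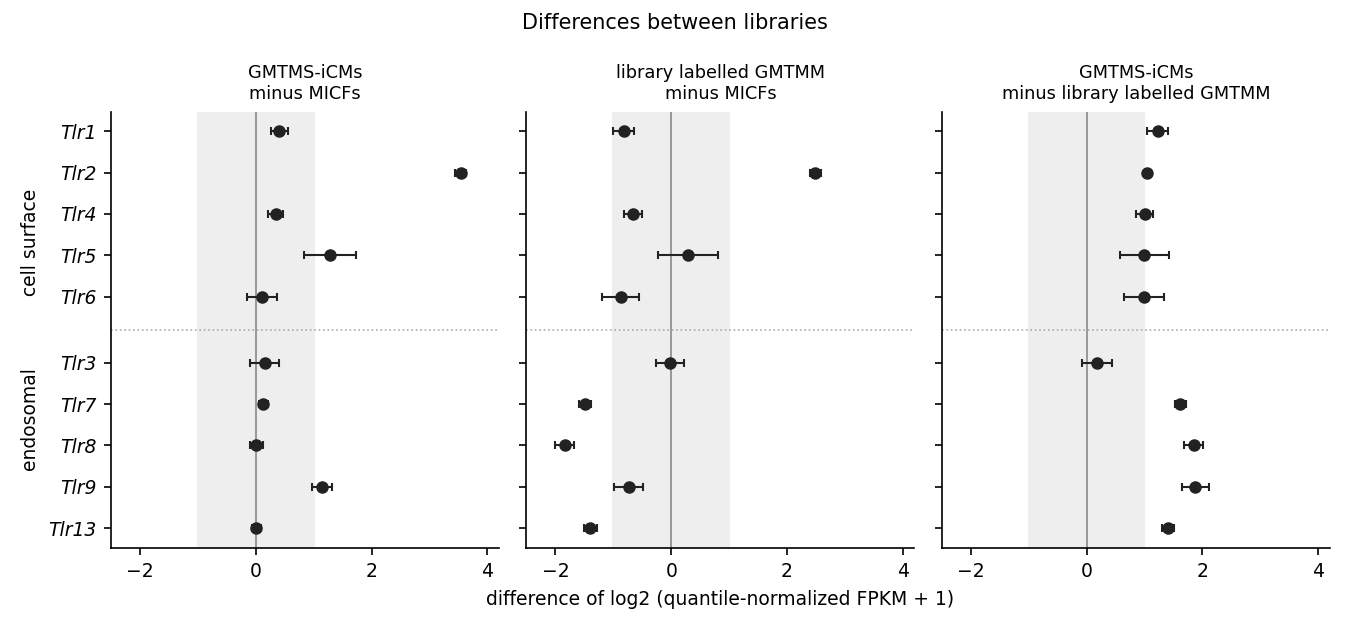
Difference of log2 (quantile-normalized FPKM + 1) of each receptor in the 3 comparisons, with grey from -1 to 1. Bars are the 95% counting interval of the FPKM ratio placed around the difference. Against MICFs, Tlr2 reaches 3.54 in GMTMS-iCMs, and 2.49 with GMTMM as the label, and every receptor lies above 0 when GMTMS-iCMs are compared with the library labelled GMTMM.

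Among the cell surface receptors, Tlr2 stood apart. Tlr2, which pairs with Tlr1 or Tlr6 to bind lipoproteins (ENSMUSG00000027995, chromosome 3 from 83836272 to 83841767), had 1101, 12289 and 6739 counts. Its FPKM were 25.4, 439 and 191, so that both transduced libraries were far above MICFs. It was 17.3-fold higher in GMTMS-iCMs than in MICFs (16.3 to 18.4) and 7.54-fold higher in the library labelled GMTMM (7.07 to 8.04). Among the 14415 genes its difference of 3.54 in GMTMS-iCMs took place 80 from the top, and that of 2.49 in the library labelled GMTMM place 184. On the 8 scalings compared, its difference from MICFs lay between 3.51 and 4.11 in GMTMS-iCMs and between 2.47 and 2.91 in the library labelled GMTMM. Scaling to the macrophage markers is not among the 8, and on it Tlr2 was 2.98 and 3.07. GMTMS-iCMs exceeded the library labelled GMTMM 2.29-fold (2.23 to 2.36).

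The partners of Tlr2 showed no such difference from MICFs. Tlr1, the partner for triacylated lipoproteins (ENSMUSG00000044827, chromosome 5 from 64924679 to 64933563), had 721, 760 and 367 counts, or 14.98, 24.5 and 9.39 FPKM. Tlr6, the partner for diacylated lipoproteins (ENSMUSG00000051498, chromosome 5 from 64952031 to 64960097), had 293, 201 and 113 counts, or 5.46, 5.81 and 2.60 FPKM. Neither passed a difference of 1 from MICFs in either transduced library on the main scale. Tlr1 was 1.63-fold the MICF level in GMTMS-iCMs (1.47 to 1.81), and Tlr6 1.06-fold (0.884 to 1.28), an interval that includes no change. In the library labelled GMTMM both were below MICFs, Tlr1 1.59-fold (1.40 to 1.81) and Tlr6 2.10-fold (1.69 to 2.64), and Tlr6 passed -1 on 3 of the 8 scalings. The FPKM of Tlr2 was therefore 1.70, 17.95 and 20.4 times that of Tlr1 in the 3 libraries. Tlr1 and Tlr6 are neighbours, 18467 bases apart, and close copies, with 15.3% of the 50-base words of Tlr1 and 12.6% of those of Tlr6 found in another gene, so that reads could be split between them. No such word was shared for Tlr2.

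Tlr4, the lipopolysaccharide receptor (ENSMUSG00000039005, chromosome 4 from 66827584 to 66930284), had 1022, 988 and 568 counts. Its FPKM were 12.8, 19.1 and 8.75, and the order of the libraries was that of Tlr1. It was 1.498-fold the MICF level in GMTMS-iCMs (1.37 to 1.64) and 1.46-fold below it in the library labelled GMTMM (1.32 to 1.62), with differences of 0.34 and -0.66. Tlr5 (ENSMUSG00000079164, chromosome 1 from 182954788 to 182976044) was scarce, with 61, 144 and 71 counts, or 0.885, 3.24 and 1.27 FPKM. It was 3.66-fold higher in GMTMS-iCMs than in MICFs (2.69 to 5.02), the widest interval in the family. In the library labelled GMTMM it was 1.43-fold the MICF level (1.00 to 2.05), a change at the edge of what this depth can show.

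Of the endosomal receptors, Tlr7, Tlr8 and Tlr13 passed a difference of 1 from MICFs only in the library labelled GMTMM. Tlr9 passed it only in GMTMS-iCMs, and Tlr3 in neither. Tlr7, a receptor for single-stranded RNA (ENSMUSG00000044583, chromosome X from 167304929 to 167330558), had 2935, 3034 and 1125 counts. Tlr8, its neighbour 40599 bases away (ENSMUSG00000040522, chromosome X from 167242696 to 167264329), had 1494, 1277 and 391 counts. Tlr13, a receptor for bacterial ribosomal RNA (ENSMUSG00000033777, chromosome X from 106143204 to 106160493), had 2382, 2247 and 970 counts. In all 3 genes the library labelled GMTMM was the lowest. Against MICFs, Tlr8 was 3.10-fold lower there (2.77 to 3.48), Tlr7 2.12-fold lower (1.98 to 2.27) and Tlr13 1.99-fold lower (1.85 to 2.15). Their differences of -1.84, -1.49 and -1.39 were places 47, 124 and 158 from the bottom of the 14415 genes. Tlr7 and Tlr8 stayed below -1 on all 8 scalings and Tlr13 on 6, with a highest value of -0.96. Several of these scalings share quantile normalization, and FPKM without it shares its library scaling with another of them. Scaled to the macrophage markers, which is not among the 8, Tlr8 was -1.37, Tlr7 -0.87 and Tlr13 -0.78. In GMTMS-iCMs the 3 genes had differences from MICFs between 0.01 and 0.13, which were larger without quantile normalization, and that of Tlr13 was -0.0053 on 1 of the 8 scalings. On FPKM they were 1.602-fold (1.52 to 1.69), 1.32-fold (1.23 to 1.43) and 1.46-fold (1.38 to 1.55) the MICF level for Tlr7, Tlr8 and Tlr13.

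These 3 genes are the X-linked members, and genes of the sex chromosomes differed between the libraries. Xist, the RNA that silences an X chromosome in female cells, had 11855, 5279 and 1618 counts. The Y-linked genes Ddx3y, Kdm5d, Uty and Eif2s3y had 0, 1630 and 1926 counts in sum. Of the 460 X-linked genes tested, 3.48% had a difference below -1 between the library labelled GMTMM and MICFs. The median difference of X-linked genes was -0.12, against -0.08 for the other genes. Y-linked counts were thus absent in MICFs and present in both transduced libraries. In comparisons with MICFs, the sex of the animals therefore cannot be told apart from virus, sorting and cocktail. Its part in the difference of these receptors was not tested.

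Tlr9, which senses unmethylated DNA (ENSMUSG00000045322, chromosome 9 from 106222598 to 106226883), had 416, 695 and 200 counts, or 8.31, 21.5 and 4.92 FPKM. The transduced libraries therefore lay on either side of MICFs. Tlr9 was 2.59-fold higher in GMTMS-iCMs (2.29 to 2.93) and 1.69-fold below MICFs in the library labelled GMTMM (1.42 to 2.01), a difference of -0.73 that did not pass the threshold. Between the transduced libraries it was 4.37-fold higher in GMTMS-iCMs (3.73 to 5.14), place 27 from the top of the 14415 genes. Tlr3, the receptor for double-stranded RNA that signals through Ticam1 (ENSMUSG00000031639, chromosome 8 from 45395665 to 45411080), was the flattest member. It had 333, 230 and 267 counts, or 4.44, 4.76 and 4.39 FPKM, and its FPKM ratio to MICFs was 1.07 (0.901 to 1.27) in GMTMS-iCMs and 0.988 (0.838 to 1.16) in the library labelled GMTMM. No change of Tlr3 was detectable at this depth, and the intervals leave room for changes up to their bounds. An antisense gene, Gm45542, covers 7.32% of the exon bases of Tlr3 and was listed with 0 counts in each library.

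Set side by side, the cell surface receptors had 2 members higher and 0 lower in GMTMS-iCMs against MICFs (median 0.40), and the endosomal receptors 1 and 0 (median 0.13). In the library labelled GMTMM the cell surface receptors had 1 higher and 0 lower (median -0.66), and the endosomal receptors 0 higher and 3 lower (median -1.39). The summed FPKM of the cell surface receptors was 59.5, 492 and 213, while that of the endosomal receptors was 130, 201 and 61.5. Cell surface receptors thus made up 31.4%, 71.0% and 77.6% of the FPKM of the family in the 3 libraries. Tlr2 alone held 13.4%, 63.4% and 69.6%. Without Tlr2 the cell surface share was 20.8%, 20.8% and 26.3% in the 3 libraries. With 5 genes in each group and 1 library per condition, no test of the difference between the groups was made.

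Because macrophage markers also differed between the libraries, the receptors were set against them. On the log2 scale, 2 of the 12 macrophage markers were higher and 0 lower in GMTMS-iCMs than in MICFs (median 0.27), and 0 were higher and 3 lower in the library labelled GMTMM (median -0.66). Between the transduced libraries, 7 markers were higher in GMTMS-iCMs and 0 lower (median 1.05), and all 12 lay above 0. The FPKM of each receptor was divided by the geometric mean of the 12 markers in the same library (213, 454 and 186 FPKM). A single scaling factor per library cannot change this ratio, but quantile normalization can. On this ratio Tlr2 was 8.11-fold higher than in MICFs in GMTMS-iCMs and 8.64-fold higher in the library labelled GMTMM, and its change exceeded that of each of the 12 markers in both. The values for the transduced libraries thus came close together, and their log2 difference was -0.091 (-0.13 to -0.048), against a 2.29-fold difference on FPKM. Tlr5 was 1.72-fold and 1.64-fold higher on the ratio, with log2 intervals of 0.34 to 1.24 and 0.20 to 1.23. Its values were above all 12 markers in both libraries, but the log2 margins to the closest marker (0.30 and 0.21) were within counting error.

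The other receptors were mostly lower on this ratio. In GMTMS-iCMs 7 of the 10 members lay below the geometric mean of the markers by more than the counting error of the receptor. These were Tlr1, Tlr3, Tlr4, Tlr6, Tlr7, Tlr8 and Tlr13, with log2 values down to -1.004 for Tlr6. Of these, Tlr1, Tlr4, Tlr7 and Tlr13 lay below 11 of the 12 single markers. On the quantile-normalized scale Tlr1 (0.40) and Tlr4 (0.34) lay above the marker median of 0.27, while Tlr3, Tlr6, Tlr7, Tlr8 and Tlr13 lay below it. On the ratio, 7 members lay below the geometric mean in the library labelled GMTMM (Tlr1, Tlr4, Tlr6, Tlr7, Tlr8, Tlr9 and Tlr13). Tlr8 was the lowest at -1.44 (-1.60 to -1.28). Tlr8 lay below each of the 12 markers in both libraries, and Tlr3 and Tlr6 did so in GMTMS-iCMs. The log2 margin to the closest marker there was -0.36 for Tlr3 and -0.37 for Tlr6. For Tlr8 it was only -0.05, which is within counting error. On the quantile-normalized scale Tlr8 (0.01) lay above Mertk (-0.07) there. On the ratio Tlr7 (-0.89) and Tlr13 (-0.80) lay below 11 of the 12 markers in the library labelled GMTMM, and above Mertk. The FPKM of Mertk was 2.31-fold below MICFs there, beside 2.12-fold for Tlr7 and 1.99-fold for Tlr13. Tlr3 was -0.99 (-1.24 to -0.75) on the ratio in GMTMS-iCMs, and it was 0.18 (-0.06 to 0.42) in the library labelled GMTMM. Tlr9 was above the geometric mean in GMTMS-iCMs (0.28, from 0.10 to 0.46) and below it in the library labelled GMTMM (-0.56, from -0.81 to -0.31). Of the markers of other leukocytes, the T cell markers Cd3d, Cd3e, Cd3g and Cd2 had 30 to 72 counts each in the library labelled GMTMM and at most 5 in the others, and were 4 of 4 higher there than in MICFs. Of 6 neutrophil markers, Ly6g, Cxcr2, S100a9 and Retnlg were at 0 in all 3 libraries and S100a8 had at most 2 counts, while Csf3r had 563, 1435 and 675 counts and was 3.95-fold higher in GMTMS-iCMs than in MICFs. The B cell markers had at most 23 counts. Dendritic cell markers summed to 3.40, 12.2 and 7.79 FPKM. Endothelial markers summed to 316, 9.86 and 239 FPKM. The part of these cells in the receptor levels was not tested.

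**Figure D3:**
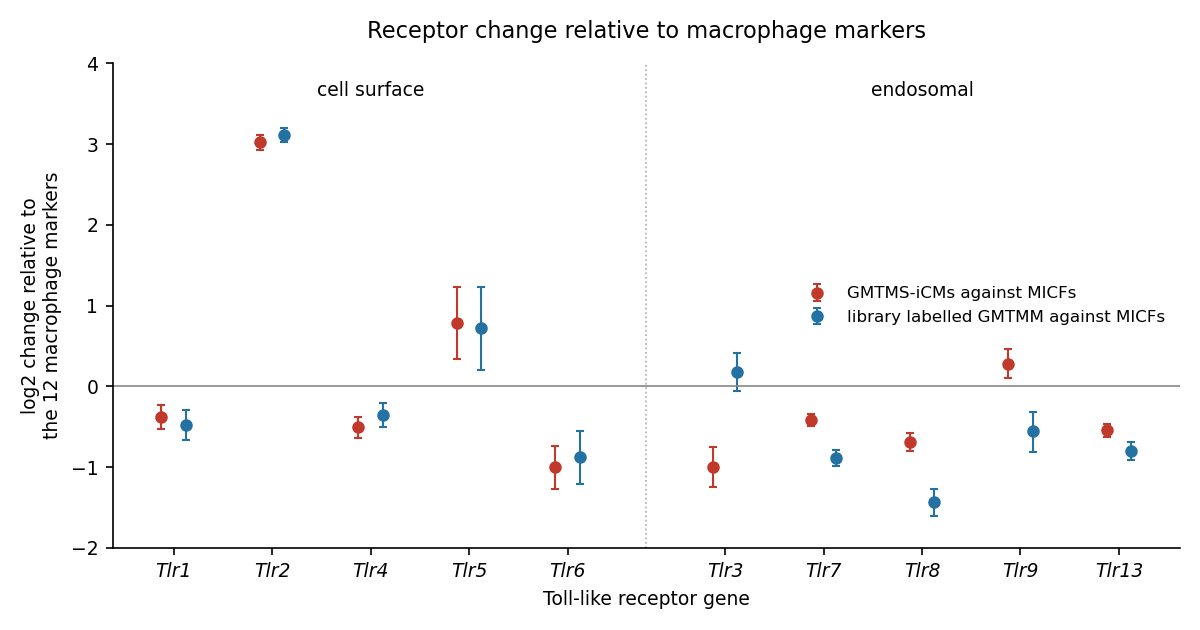
Log2 change from MICFs of each receptor relative to the geometric mean of 12 macrophage markers, for both transduced libraries. Bars are 95% counting intervals of the receptor counts. Tlr2 lies at 3.02 and 3.11, Tlr5 at 0.78 and 0.72, and Tlr8 at -0.69 and -1.44.

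Of the co-receptors, chaperones and processing proteases of the pathway, GMTMS-iCMs had 3 of 13 higher and 0 lower than MICFs (median 0.32), and 1 was higher and 0 lower in the library labelled GMTMM (median -0.09). Cd14, which passes lipopolysaccharide and lipoproteins to Tlr4 and Tlr2, had 2219, 20292 and 11593 counts. It was 14.2-fold higher in GMTMS-iCMs (13.6 to 14.8) and 6.44-fold higher in the library labelled GMTMM (6.15 to 6.74), beside 17.3-fold and 7.54-fold for Tlr2. The FPKM of Cd14 was 7.67 times that of Tlr4 in MICFs and 72.6 and 72.1 times in the transduced libraries. Cd36, a scavenger receptor that works with Tlr2 and Tlr6, was 4.30-fold higher in GMTMS-iCMs (3.93 to 4.71), and Cd180, a Toll-like receptor homologue of B cells and macrophages, 3.42-fold (3.18 to 3.67). Ly96, the subunit of Tlr4 that binds lipopolysaccharide, had 138, 116 and 143 counts and differences from MICFs of 0.24 and 0.21. Unc93b1, which carries the endosomal receptors from the endoplasmic reticulum, had differences from MICFs of 0.08 (GMTMS-iCMs) and -0.89.

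Downstream of the receptors, 13 of the 17 target genes but 4 of the 14 kinases and ubiquitin ligases were higher in GMTMS-iCMs. Of 4 adaptors tested, Myd88 was higher in both transduced libraries, with 609, 1187 and 1374 counts, 3.02-fold (2.74 to 3.34) in GMTMS-iCMs and 2.78-fold (2.52 to 3.06) in the library labelled GMTMM. Ticam2, the bridging adaptor of Tlr4, was higher by 1.01 in GMTMS-iCMs. Sarm1 had at most 4 counts. Of 14 kinases and ubiquitin ligases, 4 were higher and 0 lower in GMTMS-iCMs (Traf3, Irak2, Ikbke and Traf6, median of the list 0.54), and 2 were higher (Traf3 and Irak2) and 1 lower (Tab1) in the library labelled GMTMM (median 0.01). Traf3, a ubiquitin ligase of the interferon branch, was 5.37-fold higher in GMTMS-iCMs (4.88 to 5.93).

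Of 9 transcription factors, 6 were higher and 0 lower in each transduced library, with medians of 1.69 (GMTMS-iCMs) and 1.70. Rel, an NF-kappaB subunit, had 430, 5905 and 2442 counts and was 21.3-fold higher in GMTMS-iCMs (19.3 to 23.5) and 7.00-fold higher in the library labelled GMTMM (6.31 to 7.77). Nfkb1 was 8.30-fold (7.89 to 8.74) and 6.67-fold (6.33 to 7.02) higher. Nfkb2 and Relb had differences between 1.98 and 2.42. Irf3, the factor that acts after Tlr3 and Tlr4, had values of -0.68 and -0.70.

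Of 9 inhibitors, 5 were higher and 1 lower in GMTMS-iCMs (median 1.93), and 5 higher and 0 lower in the library labelled GMTMM (median 1.52). Tnfaip3, an enzyme that edits ubiquitin chains and restrains NF-kappaB, had 1151, 21401 and 22830 counts and was 28.8-fold (27.1 to 30.6) and 24.4-fold (23.0 to 25.9) higher. Nfkbia, which holds NF-kappaB in the cytoplasm, was 10.1-fold (9.61 to 10.7) and 10.3-fold (9.80 to 10.9) higher. Tnip3, another inhibitor of NF-kappaB, had 21, 6601 and 3115 counts, and Sigirr, a membrane inhibitor of these receptors, had 159, 1 and 84 counts.

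Of the 17 target cytokines and enzymes tested, 13 were higher and 0 lower in GMTMS-iCMs (median 2.46), and 12 were higher and 0 lower in the library labelled GMTMM (median 1.98). Cxcl10 had 44, 10253 and 6761 counts, Ccl5 had 21, 1499 and 1021 and Ptgs2, the inducible prostaglandin synthase, had 343, 7809 and 7262. Ifnb1, the gene of interferon beta, had 0 counts in MICFs and 215 and 142 in the transduced libraries, at least 111-fold and 58.3-fold higher against a floor of 3 counts per library. Il6 was the target with the widest gap between the transduced libraries, with 122, 772 and 11635 counts. Among the receptors themselves, only Tlr2 was higher than MICFs by over 1 in both libraries, and Tlr7, Tlr8 and Tlr13 were lower in the library labelled GMTMM.

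**Figure D4:**
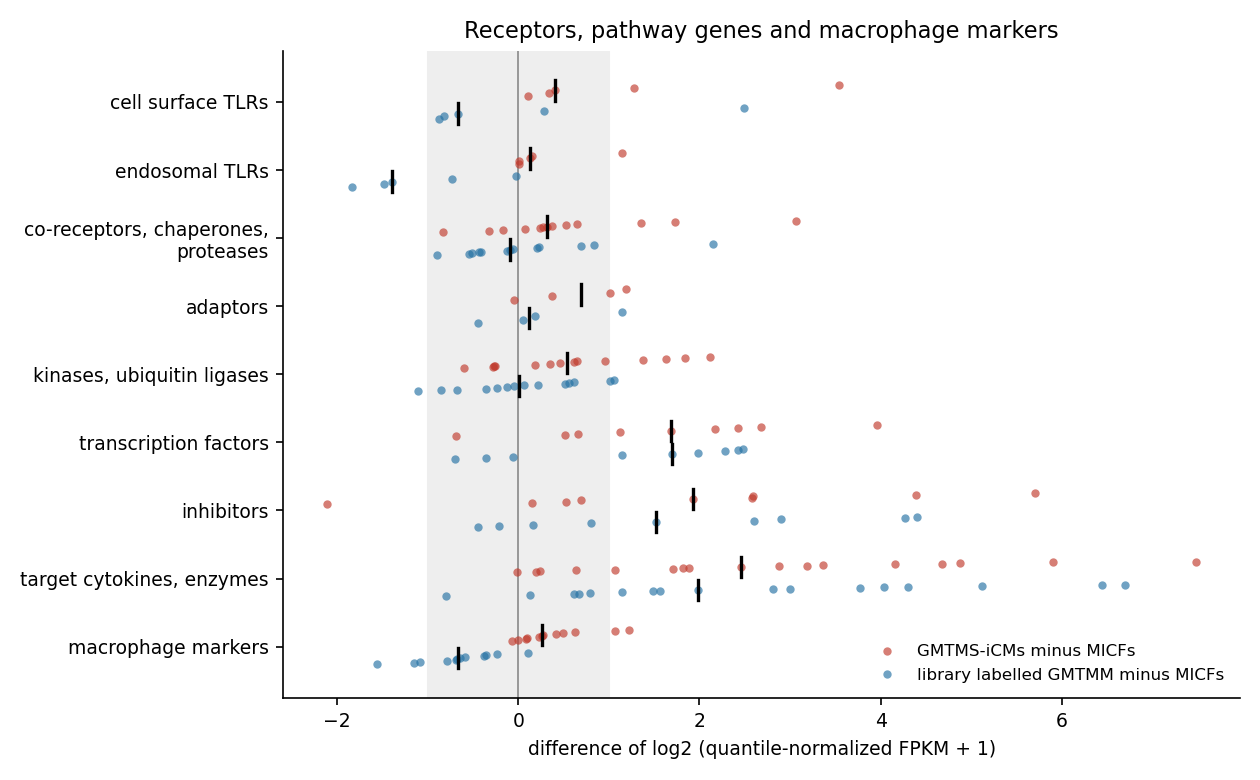
Difference from MICFs, on log2 (quantile-normalized FPKM + 1), of each gene with a mean of at least 10 counts, for both transduced libraries, in the receptor groups, the pathway lists and the macrophage markers. Each point is a gene, black bars are list medians and grey runs from -1 to 1. The medians are 0.13 and -1.39 for the endosomal receptors and 2.46 and 1.98 for the target cytokines and enzymes.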

How the data were processed

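The authors deposited raw counts per gene and FPKM per gene for 3 libraries. The processing notes of the submitters name HISAT2 2.0.5 and mm9, while the coordinates of all 10 members equal GENCODE M21 on GRCm38. How reads were counted, with or without strand and with what treatment of reads that match several places, is not given in the sources used here. The deposited FPKM follow from the counts, the exon length of each gene and a library size (14389264, 9287868 and 11680913 in MICFs, GMTMS-iCMs and GMTMM) and not from the library totals. The column of MICFs carries an abbreviation and was matched because the other columns name the cocktails.

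FPKM were quantile-normalized (ties averaged) and transformed as log2 (FPKM + 1), after the methods of the study. Genes with a mean of at least 10 counts over the libraries formed the background. Ratios of FPKM carry exact Clopper-Pearson 95% intervals, and levels exact Poisson 95% intervals. The members and lists were chosen with earlier results of these data known. The genes named are the members, up to 4 genes in each direction of each list past a difference of 1, cell type markers at 0 counts, the delivered factors and sex chromosome genes. Genes named outside that rule (Ly96, Unc93b1, Irf3, Sarm1, S100a8, Gm45542 and Tlr11) were chosen after their values were seen, as were the division by macrophage markers and the counts of markers exceeded. Other scalings were no quantile normalization, log2 before it, a pseudocount of 0.1, quantile normalization over genes with FPKM of at least 1, TMM log2 CPM with a prior count of 2, DESeq2 size factors, and thinning to the smallest total. Scripts were tested on simulated data. TMM came from edgeR 4.0.16 and size factors from DESeq2 1.42.0, both in R 4.3.3. Intervals came from SciPy 1.17.1, tables from pandas 2.3.3 with numpy 2.4.6, and plots from matplotlib 3.10.9, under Python 3.11.15. Protein identity between members was not analysed here.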

Additional observations from a re-analysis of the deposited data

How the results depend on the processing

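No paired analysis was possible because there is only 1 library a condition, and no library could be left out. Of 114 counts and medians of the family under the alternatives, 90 stayed near the main value and 24 did not, and of 240 single receptor differences 170 stayed within counting error and 70 did not. A change of sign occurred in 3 medians and 14 single differences, the 3 medians and 12 of the single differences under scaling to the macrophage markers and 2 under thinning, where Tlr13 in GMTMS-iCMs (-0.0053) and Tlr3 in the library labelled GMTMM (0.029) were near 0 against MICFs. For GMTMS-iCMs against MICFs, the medians of the cell surface and endosomal receptors (0.40 and 0.13) were 0.62 and 0.46 on TMM values, 0.71 and 0.55 on DESeq2 size factors, and 0.67 and 0.54 when quantile normalization was left out. The library sizes behind the deposited FPKM are proportional to the DESeq2 size factors (1.26, 0.811 and 1.02). FPKM without quantile normalization and DESeq2 size factors are therefore nearly the same scaling and do not check each other. For the library labelled GMTMM against MICFs, the endosomal median (-1.39) was -1.02 on TMM values, -0.99 on DESeq2 size factors and -0.96 when quantile normalization was left out, and the cell surface median (-0.66) was -0.50 without quantile normalization. For GMTMS-iCMs against the library labelled GMTMM, the endosomal median (1.62) was 1.72 without quantile normalization and 1.76 with DESeq2 size factors. A difference over 2 in place of 1 left 1 receptor higher in GMTMS-iCMs than in MICFs and 0 lower in the library labelled GMTMM. Between the transduced libraries it left 0 higher. Scaling to the macrophage markers, chosen after seeing the data, left 1 receptor higher in GMTMS-iCMs than in MICFs (medians -0.36 and -0.53) and 1 lower in the library labelled GMTMM (medians -0.33 and -0.78). It left 0 higher between the transduced libraries, with medians of -0.091 and 0.46. Under it Tlr2 (-0.091), Tlr4 (-0.15), Tlr6 (-0.099) and Tlr3 (-0.94) were below 0 in that comparison, and against MICFs Tlr1, Tlr3, Tlr4, Tlr6, Tlr7, Tlr8 and Tlr13 were below 0 in GMTMS-iCMs (-0.83 to -0.36) and Tlr3 above 0 (0.15) in the library labelled GMTMM. The median of all genes then moved to -0.77, 0.17 and -0.88 in the 3 comparisons, so that the markers and not most genes set the zero. The pseudocount of 1 understates Tlr5, which had 61 to 144 counts.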

Other observations

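Sensors of the cytoplasm, which detect nucleic acids or bacterial products without Toll-like receptors, were listed beside the family. Of 11 such genes, GMTMS-iCMs had 6 higher and 0 lower than MICFs (median 2.11), and 6 were higher and 1 lower in the library labelled GMTMM (median 1.14). Ifih1, a sensor of long double-stranded RNA as Tlr3 is, had 584, 10487 and 4076 counts (in the order MICFs, GMTMS-iCMs, library labelled GMTMM), while Tlr3 had 333, 230 and 267. Ifih1 was 27.8-fold (25.6 to 30.3) and 8.60-fold (7.88 to 9.39) higher than in MICFs. Nlrp3, the core of an inflammasome, was 16.7-fold (15.6 to 17.9) and 5.62-fold (5.23 to 6.04) higher, and Nod2, a sensor of bacterial cell walls, 6.94-fold (5.60 to 8.67) and 3.70-fold (2.95 to 4.66). Mavs, the adaptor that Ifih1 uses, was the gene lower in the library labelled GMTMM (-1.42).

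Of matrix and nuclear proteins that can act on Toll-like receptors from within the body, GMTMS-iCMs had 3 of the 6 genes tested lower and 0 higher than MICFs, and 0 were higher or lower in the library labelled GMTMM. Of all genes, 9.19% were lower in GMTMS-iCMs. Bgn, a proteoglycan that acts on Tlr2 and Tlr4, had 31694, 3253 and 37778 counts. Tnc, a matrix glycoprotein that acts on Tlr4, had 7938, 429 and 11319 counts, and Fn1 had 44154, 4367 and 51606. Fibroblast markers moved in the same direction in GMTMS-iCMs, with 7 of 7 lower than in MICFs, and their part in these values was not tested.

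Of the mouse receptor genes outside the 10, Tlr12 had 27, 91 and 34 counts and was 5.22-fold higher in GMTMS-iCMs than in MICFs (3.37 to 8.35), and Tlr11 had at most 2 counts in any library.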
